A study of Mus musculus with 11 samples.

Results

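The genes described here are 10 members of the Hippo pathway and its YAP-TEAD output, out of 23185 named genes measured. They were chosen by symbol: the factors Yap1, Wwtr1 and Tead1, the regulators Lats2, Amotl2 and Ajuba, and the target genes Ccn1, Ccn2, Ankrd1 and Axl. All 10 were found, each as 1 array feature, and no filter on low values was applied. The study followed biliary epithelium marked with YFP, a yellow fluorescent protein, through liver injury, and measured sorted mouse liver cells on 11 Affymetrix MoGene 2.0 ST arrays. YFP+ cells came from mice on the CDE diet (choline-deficient, ethionine-supplemented; 3 arrays), from mice on the DDC diet for 5 weeks (3 arrays), and from untreated mice (UTR; 2 arrays). YFP- cells of untreated mice filled the remaining 3 arrays. All were live non-parenchymal cells from livers digested with collagenase and pronase, sorted on a gate set with wild type mice, so every group shares the enzymatic digestion and the sort. The labels do not name the promoter behind the YFP label, the strain, the ages or the length of the CDE diet. The protocol names 4 mice on DDC without tying them to arrays, and nothing says that replicates are different animals, so the p-values below rest on a spread that may be only technical.

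YAP (Yap1) and its paralog TAZ (Wwtr1) are co-activators without a DNA-binding domain of their own, and reach DNA mainly through TEAD factors such as Tead1. The Hippo kinases LATS1 and LATS2 phosphorylate YAP and TAZ and keep them out of the nucleus, and tension in the actin skeleton and loss of cell contacts release them. In the liver, YAP activity is known to be high in bile duct cells and low in resting hepatocytes, and to rise in injury. The arrays measured RNA, so neither the phosphorylation nor the nuclear location of YAP and TAZ was measured.

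The short DNA element that TEAD factors bind is GGAATG, which reads CATTCC on the other strand. RefSeq promoter windows (GRCm38.p6, 250 bases before to 50 after a gene's start) were matched by symbol for 8 of the 10 genes, all but Tead1 and Ccn2. Each of these 8 genes had the letters in at least 1 window, on either strand. Of all 32851 windows 14.7% held them, and of the 27025 genes with a window 16.6% did. The following stretches of 30 bases are shown because they carry the letters, in capitals, in front of 3 of the target genes, 1 regulator and both co-activators. Ajuba held them in 2 places and Lats2 in 1 of its 2 windows, which are not printed. Each is read 5' to 3' on the gene's own strand.
Ccn1: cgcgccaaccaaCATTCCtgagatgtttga
Ankrd1, far: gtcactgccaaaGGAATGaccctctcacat
Ankrd1, near: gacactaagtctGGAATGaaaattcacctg
Axl: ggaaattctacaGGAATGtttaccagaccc
Amotl2: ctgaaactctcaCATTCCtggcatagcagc
Yap1: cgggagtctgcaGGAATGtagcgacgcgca
Wwtr1: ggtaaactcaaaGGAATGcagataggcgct

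These stretches lie at chr3:145650071-145650100 (minus strand, Ccn1), chr19:36120037-36120066 and chr19:36119950-36119979 (minus, Ankrd1), chr7:25788949-25788978 (minus, Axl), chr9:102717727-102717756 (plus, Amotl2), chr9:8004720-8004749 (minus, Yap1) and chr3:57576029-57576058 (minus, Wwtr1). Counted from the gene's start, the capitals begin at base -103 in Ccn1, at -210 and -123 in Ankrd1, at -233 in Axl, at -65 in Amotl2 and at -141 in Yap1. Wwtr1 has 2 annotated starts, from which the same capitals begin at -170 and -136. The letters of the AP-1 site, TGANTCA, were in the window of 0 of the 8 genes and in 8.97% of all genes. In the wider lists used below, the TEAD letters were in 6 of 18 Hippo kinase and upstream genes, 4 of 6 TEAD paralogs and VGLL cofactors, 1 of 9 other YAP target genes, 5 of 10 actin and SRF genes and 1 of 11 immediate early genes with a window. The letters stood in front of Axl as well as Ccn1 and Ankrd1, whose levels ran in opposite directions between the sorted fractions below. Such a match describes letters and is no evidence of binding.

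Values are deposited log2 expression, and the base 2 is inferred from their range. Medians of the 11 arrays ran from 5.63 to 5.76. The labels call all samples liver progenitor cells. On the 8 YFP+ arrays the mean of 7 biliary markers was 10.19 to 10.53, and in untreated mice all 7 were higher in YFP+ than in YFP- cells. On YFP- replicates 1, 2 and 3 that mean was 8.12, 4.90 and 4.76, so that replicate 1 carried bile duct transcripts. The mean of 7 sinusoidal endothelial markers was 5.10 to 6.03 on YFP+ arrays and 10.25 to 11.85 on YFP- arrays. That of 6 macrophage markers was 5.88 to 7.15 on YFP+ arrays and 8.69 to 11.56 on YFP- arrays. The mean of 8 hepatocyte markers overlapped, at 7.78 to 9.15 on YFP+ and 7.58 to 9.31 on YFP- arrays. In untreated mice Ttr (1.52) and Hnf4a (2.45) were higher in YFP+ cells, Cyp2e1 (-2.83) was lower and 5 were not called. Both fractions thus carried hepatocyte transcripts. The median SD of the 10 genes was 0.175 for the CDE arrays, 0.145 for DDC and 0.307 for UTR, and it was 1.11 for YFP-, where the amounts of these transcripts differed between arrays. In such bulk samples, fewer cells of a type and less RNA per cell cannot be told apart.

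Group means in the YFP+ groups were 10.29 to 10.77 for Ccn1 and 10.82 to 11.28 for Ccn2. Levels of different genes rest on different probes and are not ranked against each other here. No gene of the 10 fell below the lower quartile of any array. On YFP- arrays Ajuba and Ccn1 lay below the array's median on 1 array each and Ankrd1 on 2. Whether low values there understate their differences from YFP+ cells was not tested.

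**Figure D1:**
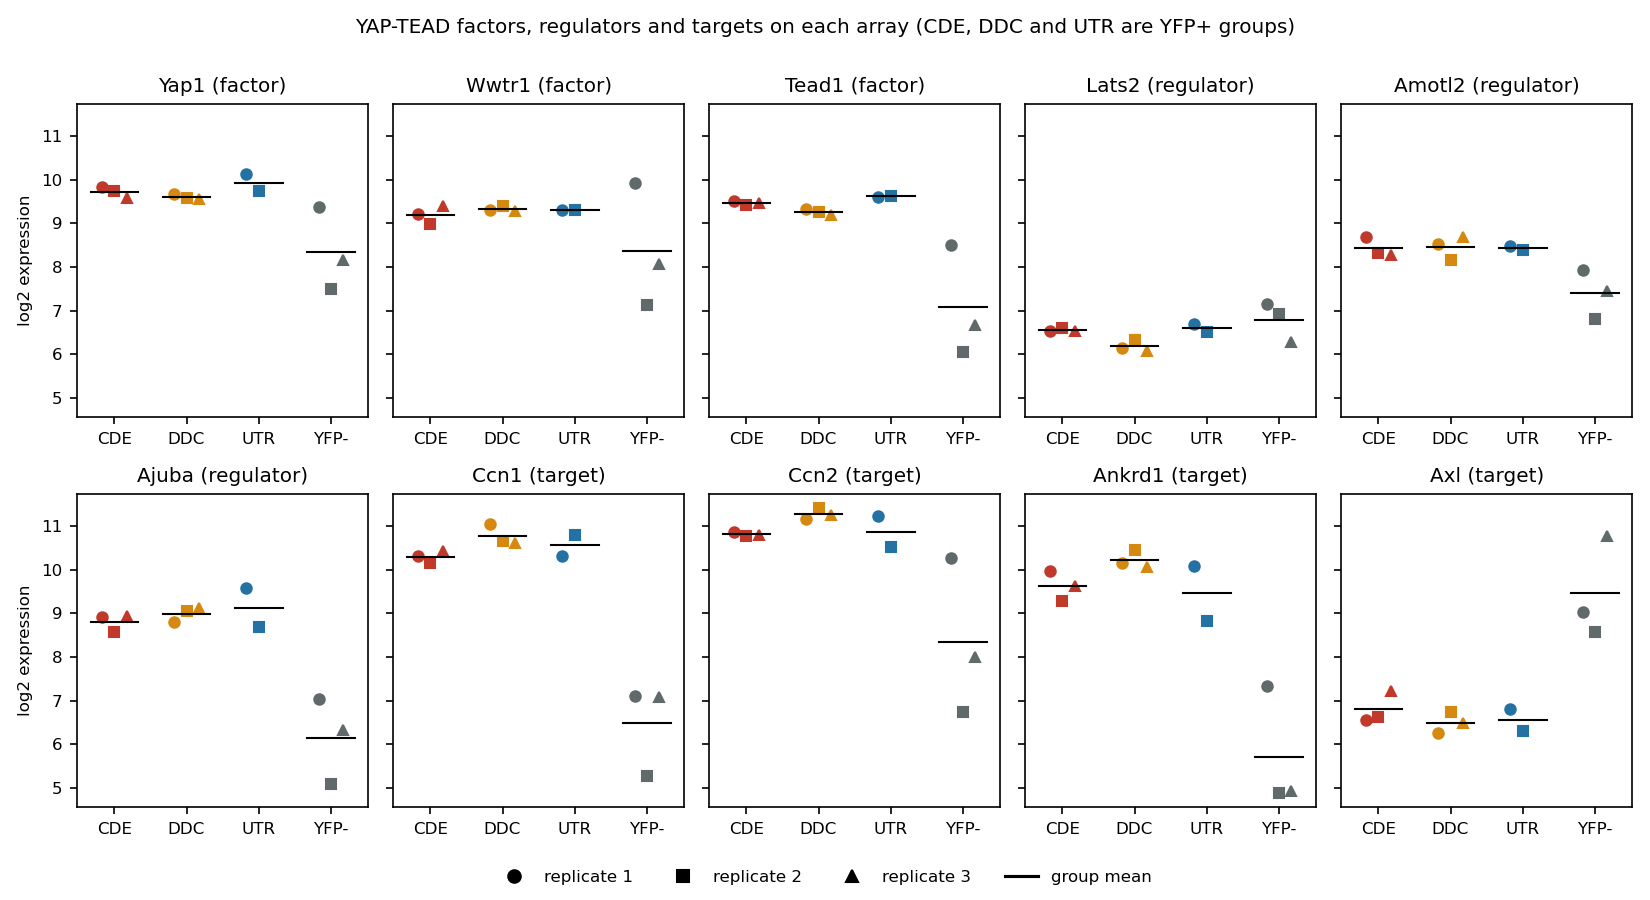
Log2 expression (y axis) of the 10 genes in the YFP+ groups CDE, DDC and UTR and in YFP- cells. Points are arrays, shapes give the replicate number and bars the group mean; the YFP+ groups sit close together, while YFP- arrays lie lower for Ccn1, Ankrd1 and Ajuba and higher for Axl.

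The comparison of untreated YFP+ with YFP- cells shows how the pathway's genes are distributed between the marked biliary cells and the other sorted cells. In YFP+ cells 2 of 3 factors, 2 of 3 regulators and 2 of 4 targets were higher, and 1 target, Axl, was lower. This made 6 genes higher and 1 lower of 10 at an adjusted p of 0.05 (limma, Benjamini-Hochberg over all genes), where 10.4% of all 23185 genes were called higher and 8.46% lower. The median difference was 2.06 for the 10 genes and -0.008 for all genes. By role, it was 1.59 for the factors, 1.04 for the regulators and 3.14 for the targets. Individual arrays did not overlap for 8 of the 10 genes, 7 higher and 1 lower in YFP+, against 22.5% of all genes higher and 20.5% lower without overlap.

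Of the factors, Yap1 read 10.13 and 9.74 on the UTR arrays, against 9.38, 7.49 and 8.16 on YFP- replicates 1 to 3. Every UTR array was above every YFP- array, and the difference was 1.59 ± 0.43 (SE; adjusted p = 0.0306, limma), or 3.01-fold. Tead1, the DNA-binding partner, read 9.61 and 9.63 in UTR, against 8.49, 6.05 and 6.68 in YFP-. It was higher by 2.54 ± 0.55 (adjusted p = 0.0110, limma), with no overlap. Wwtr1, the gene of TAZ, read 9.30 and 9.30 in UTR, against 9.93, 7.13 and 8.07 in YFP-. Its highest reading of all 11 arrays was thus on YFP- replicate 1, and its difference of 0.93 ± 0.62 did not pass (adjusted p = 0.349; 95% interval -0.47 to 2.33). On that replicate the endothelial mean was also the highest (11.85, against 10.25 and 10.70 on YFP- replicates 2 and 3). The mean of 7 stellate cell and fibroblast markers was 4.70 to 5.55 on YFP+ arrays, 7.69 on YFP- replicate 1 and 5.46 and 5.84 on the other YFP- arrays. Of those 7 markers, Lrat was no higher on replicate 1 (5.74) than on replicate 3 (5.94). The part of either cell type in the level of Wwtr1 was not tested.

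Among the regulators, Ajuba, a LIM-domain scaffold that binds LATS kinases and restrains them, read 9.57 and 8.69 in UTR, against 7.03, 5.09 and 6.32 in YFP-. The groups did not overlap, and Ajuba was higher by 2.99 ± 0.48 (adjusted p = 0.00261, limma). Amotl2, an angiomotin-family protein that tethers YAP and is itself induced by it, read 8.47 and 8.39 in UTR, against 7.93, 6.81 and 7.44 in YFP-. Its difference of 1.04 ± 0.30 was called (adjusted p = 0.0398), and the call was lost without any 1 of 9 of the 11 arrays (adjusted p up to 0.178). Lats2, the kinase that inhibits YAP and is a known target of it, read 6.68 and 6.50 in UTR, against 7.14, 6.91 and 6.28 in YFP-. These groups overlapped, and the difference of -0.19 ± 0.22 did not pass (adjusted p = 0.611; 95% interval -0.68 to 0.31).

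Ccn1 and Ccn2 are secreted matrix-associated proteins and the most used readouts of YAP activity. Ccn1 read 10.32 and 10.80 in UTR, against 7.11, 5.26 and 7.08 in YFP-, the widest gap of the 10 genes. It was higher by 4.08 ± 0.48 (adjusted p = 0.000564, limma; 95% interval 2.98 to 5.17), which is 16.9-fold. Ccn2 read 11.23 and 10.53 in UTR, against 10.28, 6.74 and 8.01 in YFP-, so UTR replicate 2 and YFP- replicate 1 were close. Its difference of 2.54 ± 0.79 missed the threshold (adjusted p = 0.0525). Ankrd1, an ankyrin-repeat protein induced by YAP and by mechanical strain, read 10.09 and 8.84 in UTR, against 7.33, 4.87 and 4.93 in YFP-. It was higher by 3.75 ± 0.68 (adjusted p = 0.00482), or 13.4-fold.

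Axl ran the other way. This receptor tyrosine kinase, which binds Gas6 and is also known from macrophages and endothelium, read 6.81 and 6.29 in UTR, against 9.04, 8.58 and 10.77 in YFP-. All YFP- arrays were above both UTR arrays, and Axl differed by -2.91 ± 0.54 (adjusted p = 0.00539, limma), which is 7.54-fold lower in YFP+. Its highest reading was on YFP- replicate 3, where the mean of 6 macrophage markers was also highest (11.56, against 8.75 and 8.69 on replicates 1 and 2). Among YFP+ arrays Axl was highest on CDE replicate 3 (7.22), and the macrophage mean was highest on that array too (7.15). Not every marker peaked there: Csf1r (8.69) and Vsig4 (6.89) were higher on UTR replicate 1 (8.79 and 7.04). The endothelial mean was highest on YFP- replicate 1 (11.85, against 10.25 and 10.70 on replicates 2 and 3). Among YFP+ arrays it was highest on UTR replicate 2 (6.03). The part of macrophage or endothelial RNA in the level of Axl was not tested.

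**Figure D2:**
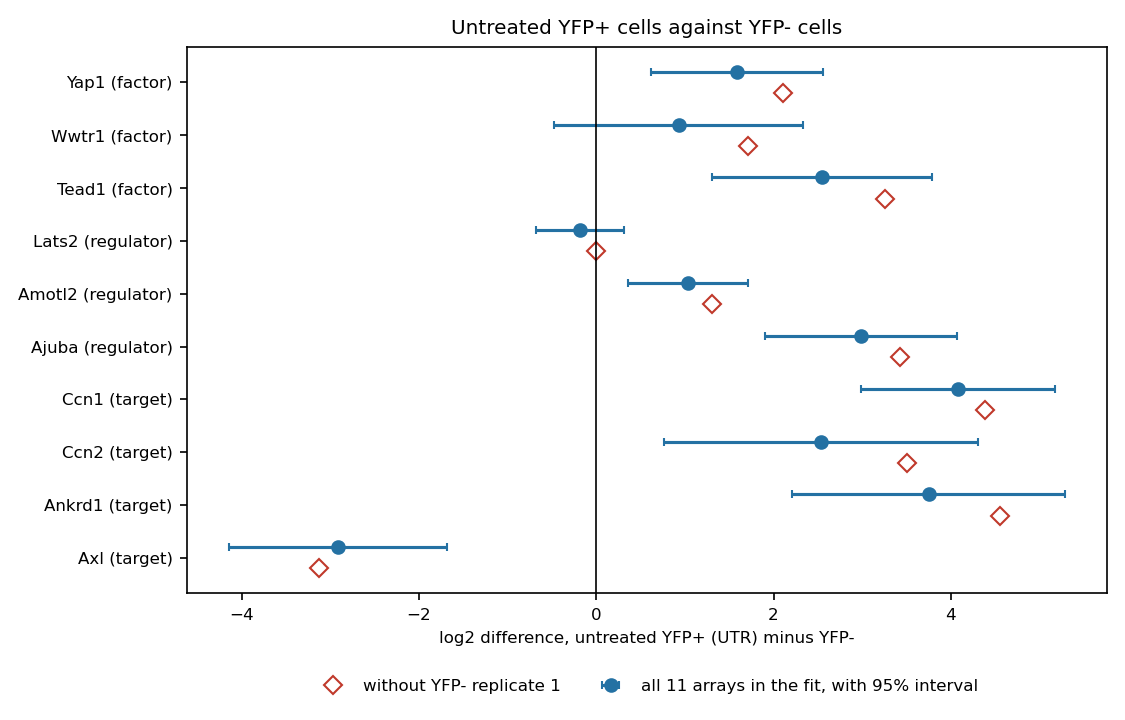
Log2 difference, untreated YFP+ (UTR) minus YFP- (x axis), for each gene with its 95% interval from the fit of 11 arrays (filled) and without YFP- replicate 1 (open). The 3 targets Ccn1, Ccn2 and Ankrd1 lie to the right, Axl to the left, and 9 of the 10 open points are further from 0 than the filled ones, the exception being Lats2.

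YFP- replicate 1, the array with bile duct transcripts, lay nearest to the UTR mean for 8 of the 10 genes. Ankrd1 was 2.13 above it in the UTR mean, but 4.59 and 4.53 above replicates 2 and 3. Ccn2 was 0.60 above it, and 4.14 and 2.87 above the others. For Axl the nearest was replicate 2 and for Lats2 replicate 3. For Ccn1 replicates 1 and 3 were about equally near (3.45 and 3.48). Wwtr1 was higher on replicate 1 than in the UTR mean (UTR minus replicate 1, -0.62). Replicate 1 also had the highest endothelial and stellate cell means (11.85 and 7.69). Without replicate 1, Ccn2 (3.50, adjusted p = 0.00018) and Wwtr1 (1.71, adjusted p = 0.00185) were called as well, and 8 genes were higher and 1 lower. Lats2 then differed by -0.0038. Leaving out YFP- replicate 2 instead gave smaller differences, at 1.73 for Ccn2, 0.31 for Wwtr1, 1.16 for Yap1 and 3.47 for Ccn1. Then 5 genes were higher and 1 lower, and Axl differed more (-3.36). On YFP- replicate 2 the mean of 5 lymphocyte markers was 10.65, against 5.42 and 6.04 on replicates 1 and 3. The mean of 3 neutrophil and monocyte markers was 12.30 there, against 9.32 and 7.84. The part of these cells in the differences was not tested.

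These calls lean on the spread borrowed from the YFP+ arrays. YFP- arrays varied more than the others, so the SE and p-values of a common fit are too small for such genes. With the 5 untreated arrays alone only Ccn1 was called (adjusted p = 0.0491); Ajuba (0.0827), Axl (0.101), Ankrd1 (0.102), Tead1 (0.150), Amotl2 (0.195) and Yap1 (0.225) were not, with the same differences. In the 11-array fit Ajuba and Ccn1 were called without any 1 array (adjusted p up to 0.0317 and 0.00942). Yap1 lost its call without either UTR array, CDE replicate 2 or YFP- replicate 3 (adjusted p up to 0.183), Tead1 without either UTR array (up to 0.0715), Ankrd1 without UTR replicate 1 (0.0543) and Axl without UTR replicate 2 (0.0558).

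All 8 YFP+ arrays together were set against the same 3 YFP- arrays, a contrast that shares the YFP- and UTR arrays with the previous one and mixes label and diet for CDE and DDC. Of the 10 genes 7 were higher and 1 lower in YFP+, against 16.3% and 14.3% of all genes. The 7 were Ccn1 and Ankrd1 (4.06 each, SE 0.36 and 0.51), Ajuba (2.83 ± 0.36), Ccn2 (2.65 ± 0.59, adjusted p = 0.00803, limma), Tead1 (2.37 ± 0.41), Yap1 (1.41 ± 0.32) and Amotl2 (1.05 ± 0.22), and Axl was lower (-2.85 ± 0.41). An exact two-sided permutation test of the 8 arrays against the 3 gave p = 0.00606 for each of these 8 genes, the smallest that the 165 regroupings can give. Wwtr1 (0.91 ± 0.46) and Lats2 (-0.34 ± 0.16) did not pass with limma (adjusted p = 0.173 and 0.151) or with the exact permutation test (p = 0.0545 and 0.103). Wwtr1 was called without YFP- replicate 1 (1.68, adjusted p = 0.000375), and Lats2 was called lower without YFP- replicate 3 (-0.59, adjusted p = 0.0042).

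The wider lists are read against the same shares of all genes, 10.4% higher and 8.46% lower in untreated YFP+ cells. Of 21 measured Hippo kinases and upstream genes 5 were higher, 1 was lower and 15 were not called, with a median difference of 0.09. The protocadherin Fat1 (3.97 ± 0.67), the scaffold Wwc1, also called KIBRA (3.87 ± 0.46), Amot, a relative of Amotl2 (2.40 ± 0.55), and the FERM protein Frmd6 (2.32 ± 0.48) were higher. The phosphatase Ptpn14 was also higher (2.25 ± 0.56) and Mob1a, the co-activator of the LATS kinases, was lower (-1.68 ± 0.16, adjusted p = 0.000216, limma); both are named after their values were seen. Amot and Frmd6 lost their calls without UTR replicate 1.

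Of 7 TEAD paralogs and VGLL cofactors, of which only the VGLL proteins compete with YAP for TEAD, 2 were higher and 0 lower. Tead3 was higher by 1.87 ± 0.21 (adjusted p = 0.000448, limma), with means of 7.68 ± 0.36 in UTR (SD, n = 2) and 5.80 ± 0.37 in YFP- (SD, n = 3). Tead4 was higher by 1.40 ± 0.43 (adjusted p = 0.0489), a call lost without any array but YFP- replicate 1. With all YFP+ arrays Tead2 passed as well (1.65 ± 0.48), so that each of the TEAD genes was higher in YFP+ in that contrast, Tead1 included; the call of Tead2 was lost without any 1 of 8 arrays.

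Of 14 other genes from YAP target signatures, 6 passed upward and 1 downward in UTR against YFP-, with a median of 0.48. The tissue factor gene F3 (3.61 ± 0.61), Fjx1 (3.50 ± 0.60), the growth factor Tgfb2 (3.46 ± 0.65) and the RNA-binding protein Rbms3 (3.13 ± 0.52) were among them. The lower gene was Asap1, a regulator of ARF GTPases (-1.52 ± 0.26), named after its value was seen. In the same contrast actin and SRF genes had 1 of 11 higher, the SRF co-activator Mrtfb (0.75 ± 0.18), and 0 lower, which is near the share of all genes called higher. Immediate early genes had 0 of 13 higher and 2 lower, the phosphatase Dusp1 (-1.25 ± 0.30) and the nuclear receptor Nr4a1 (-2.82 ± 0.76). Of the 13 genes that the rule names from these 5 lists, only Tead3 was called with the 5 untreated arrays alone (adjusted p = 0.0474).

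The diets were compared within YFP+ cells to show how the marked lineage changes in injury, on the 8 YFP+ arrays alone. None of the 10 genes was called in CDE or DDC against UTR or in DDC against CDE, in the main analysis or in any alternative. Of all 23185 genes, 0% were called in CDE against UTR (0 genes; 1492 at an unadjusted p under 0.05, among them 0 of the 10), 0.16% in DDC against UTR and 1.16% in DDC against CDE. Both diets are set against the same 2 UTR arrays, which read 10.09 and 8.84 for Ankrd1, so the values for each diet are not independent. With 2 UTR arrays the intervals are wide, and for Ankrd1 they allow a difference of -0.62 to 0.96 in CDE and -0.04 to 1.55 in DDC. CDE replicate 2 stood apart in the mean of 8 hepatocyte markers, which was 9.15 there and 7.78 to 8.18 on the other YFP+ arrays. The gap was widest for Apoa1 (8.81, against 6.39 on CDE replicate 3), Fgb (11.22 against 7.62) and Apoc3 (7.80 against 5.84). Alb (12.58), Ttr (13.15) and Hnf4a (8.39) were close to CDE replicate 3 (12.54, 13.13 and 8.39). Fgb was also high on the DDC arrays (10.81, 9.73 and 10.16). CDE replicate 2 also had the lowest CDE reading of Ccn1, Ccn2, Ankrd1, Ajuba, Wwtr1 and Tead1, and the part of hepatocyte RNA in these was not tested. Without it 0 of the 10 genes were called either, and DDC minus CDE for Ankrd1 was 0.41, against 0.59 with it.

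In CDE, Tead1 read 9.50, 9.43 and 9.47, against 9.61 and 9.63 in UTR. It lay below UTR on every array, as 10.5% of all genes did (11.5% lay above), and differed by -0.15 ± 0.09 (adjusted p = 0.873, limma). It was the only gene of the 10 whose CDE and UTR arrays did not overlap. Ccn1 read 10.31, 10.15 and 10.43 in CDE, against 10.32 and 10.80 in UTR, a difference of -0.27 ± 0.19 (adjusted p = 0.898). Ankrd1 differed by 0.17 ± 0.35, and by -0.45 and 0.80 without UTR replicate 2 and UTR replicate 1. The median difference was -0.15 for the 3 factors, -0.05 for the regulators, 0.05 for the targets and 0.004 for all genes.

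In DDC, 3 genes lay below UTR on every array, against 11.8% of all genes, and 0 above, against 12.7%. Tead1 read 9.33, 9.26 and 9.20 in DDC, against 9.61 and 9.63 in UTR (-0.36 ± 0.09; adjusted p = 0.208, limma). Lats2 read 6.15, 6.32 and 6.07 in DDC, against 6.68 and 6.50 in UTR (-0.41 ± 0.11; adjusted p = 0.233). Yap1 read 9.67, 9.58 and 9.56 in DDC, against 10.13 and 9.74 in UTR (-0.33 ± 0.14; adjusted p = 0.462). These were the 3 genes of the 10 with an unadjusted p under 0.05, as had 2417 of all 23185 genes. Wwtr1 differed by 0.03 ± 0.13.

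The targets had other values in DDC. Ankrd1 read 10.15, 10.44 and 10.06 in DDC, against 10.09 and 8.84 in UTR. DDC replicate 3 was below UTR replicate 1, and the difference of 0.76 ± 0.35 did not pass (adjusted p = 0.505, limma); it was 1.38 without UTR replicate 1 and 0.13 without UTR replicate 2. Ccn2 differed by 0.40 ± 0.19 and Ccn1 by 0.21 ± 0.19, and both overlapped with UTR. Axl differed by -0.07 ± 0.24. The median difference was -0.33 for the 3 factors, -0.14 for the regulators, 0.30 for the targets and 0.012 for all genes.

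**Figure D3:**
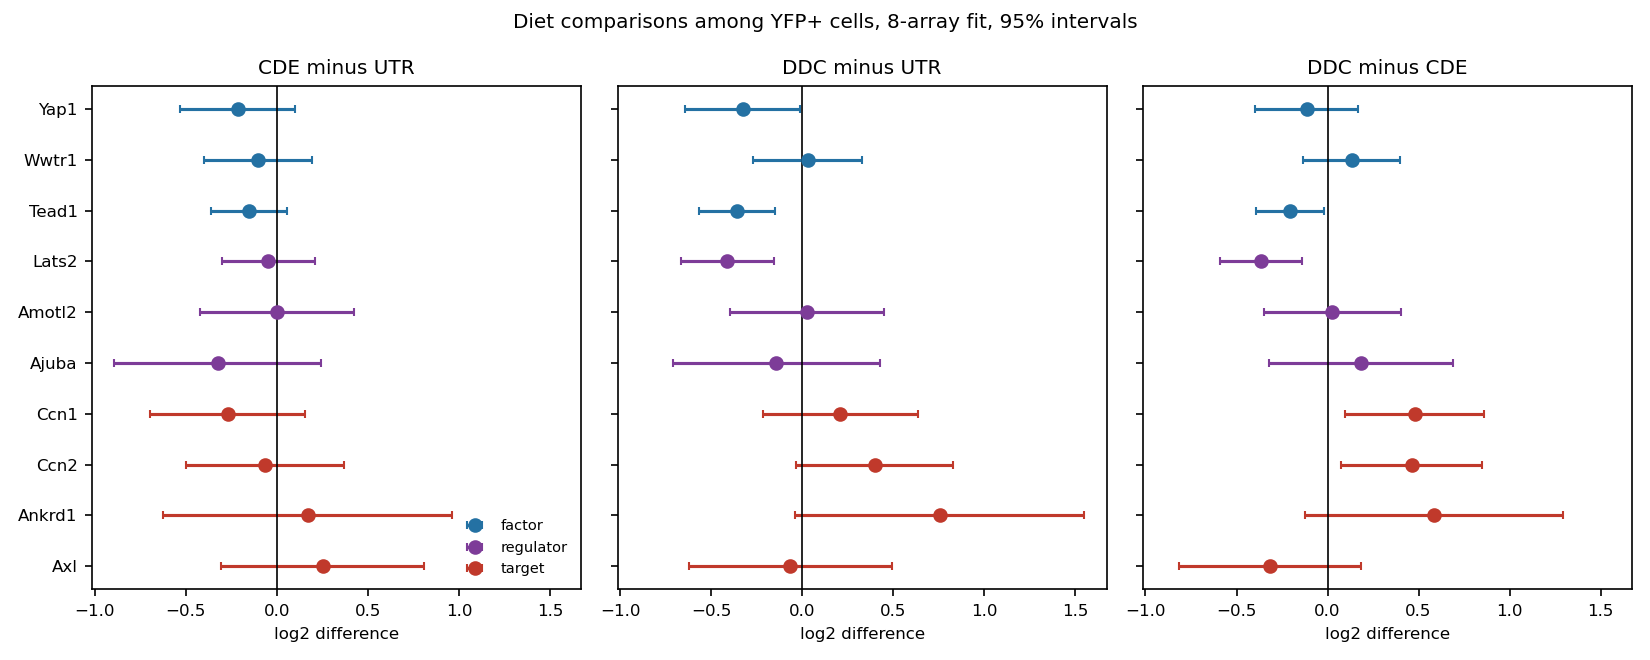
Log2 differences (x axis) of the 10 genes for each diet against UTR and for DDC against CDE (3 panels), with 95% intervals from the fit of 8 YFP+ arrays. In DDC minus CDE, Ccn1 (0.48), Ccn2 (0.46) and Ankrd1 (0.59) lie right of 0 and Tead1 (-0.20) and Lats2 (-0.36) left of 0; none was called after adjustment.

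The direct comparison of DDC with CDE does not use the UTR levels. Targets and factors had medians of opposite sign, at 0.47 for the 4 targets and -0.11 for the 3 factors, 0.03 for the regulators and 0.013 for all genes. Ccn1 read 11.04, 10.66 and 10.61 in DDC, against 10.31, 10.15 and 10.43 in CDE. Ccn2 read 11.17, 11.41 and 11.25 in DDC, against 10.87, 10.78 and 10.80 in CDE. Every DDC array was above every CDE array for both, and for Ankrd1, which read 10.15, 10.44 and 10.06 in DDC, against 9.98, 9.29 and 9.62 in CDE. These 3 of 10 genes compare with 9.64% of all genes. Tead1 and Lats2 lay below CDE on every DDC array, as 10.6% of all genes did.

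None of these differences passed. They were 0.48 ± 0.17 for Ccn1 (adjusted p = 0.224, limma), 0.46 ± 0.17 for Ccn2 (0.248), 0.59 ± 0.31 for Ankrd1 (0.415), -0.20 ± 0.08 for Tead1 (0.287) and -0.36 ± 0.10 for Lats2 (0.133). At an unadjusted p under 0.05 were 4 of the 10, Ccn1, Ccn2, Tead1 and Lats2, and 3555 of all 23185 genes. Axl, the remaining target, differed by -0.32 ± 0.22, with CDE replicate 3 the highest. Wwtr1 (0.13 ± 0.12), Yap1 (-0.11 ± 0.12), Ajuba (0.18 ± 0.22) and Amotl2 (0.03 ± 0.16) overlapped between the diets. Tead1 averaged 9.47 ± 0.04 in CDE and 9.26 ± 0.06 in DDC (SD, n = 3 each), and 9.62 ± 0.0095 in UTR (SD, n = 2), and was called in none of the 3 pairs.

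Set array by array against the UTR mean, the median of the 4 targets was 0.39, 0.36 and 0.21 on the DDC arrays and -0.0003, -0.14 and 0.04 on the CDE arrays. The UTR arrays themselves were at 0.30 and -0.30. The median of the 3 factors was -0.26, -0.35 and -0.37 on the DDC arrays and -0.10, -0.20 and -0.15 on the CDE arrays. For the targets, 1 of the 3 DDC values thus lay below that of UTR replicate 1. For the factors, every DDC and every CDE value lay below both UTR arrays, at -0.0016 and 0.0016. The 2 UTR values mirror each other by construction, being set against their own mean. For the factors they are those of Wwtr1, while Yap1 was at 0.20 and -0.20 on the UTR arrays. Gene by gene, Yap1 and Wwtr1 overlapped between CDE and UTR, and Wwtr1 between DDC and UTR, so the medians overstate the separation.

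Immediate early genes, which are induced by tissue dissociation as well as by injury, are given beside Ccn1. All 13 of the list had positive differences in DDC minus CDE, with a median of 0.62, and 1 was called, the stress gene Ier3 (0.83 ± 0.13, adjusted p = 0.0358, limma; lost without any 1 CDE or DDC array). The mean of the list was 10.38, 10.05 and 9.52 on the DDC arrays, 9.30, 9.26 and 9.44 on the CDE arrays and 9.39 and 9.83 on the UTR arrays. Ranked over the 8 YFP+ arrays, Ccn1 had the same rank as this mean on 6 arrays, Ankrd1 on 1 and Ccn2 on 0. The likeness holds within YFP+ arrays only. On YFP- replicates 1 to 3 the mean was 9.37, 10.25 and 10.47, while Ccn1 read 7.11, 5.26 and 7.08. This likeness was noticed after the values were seen, and the part of dissociation in the level of Ccn1 was not tested.

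**Figure D4:**
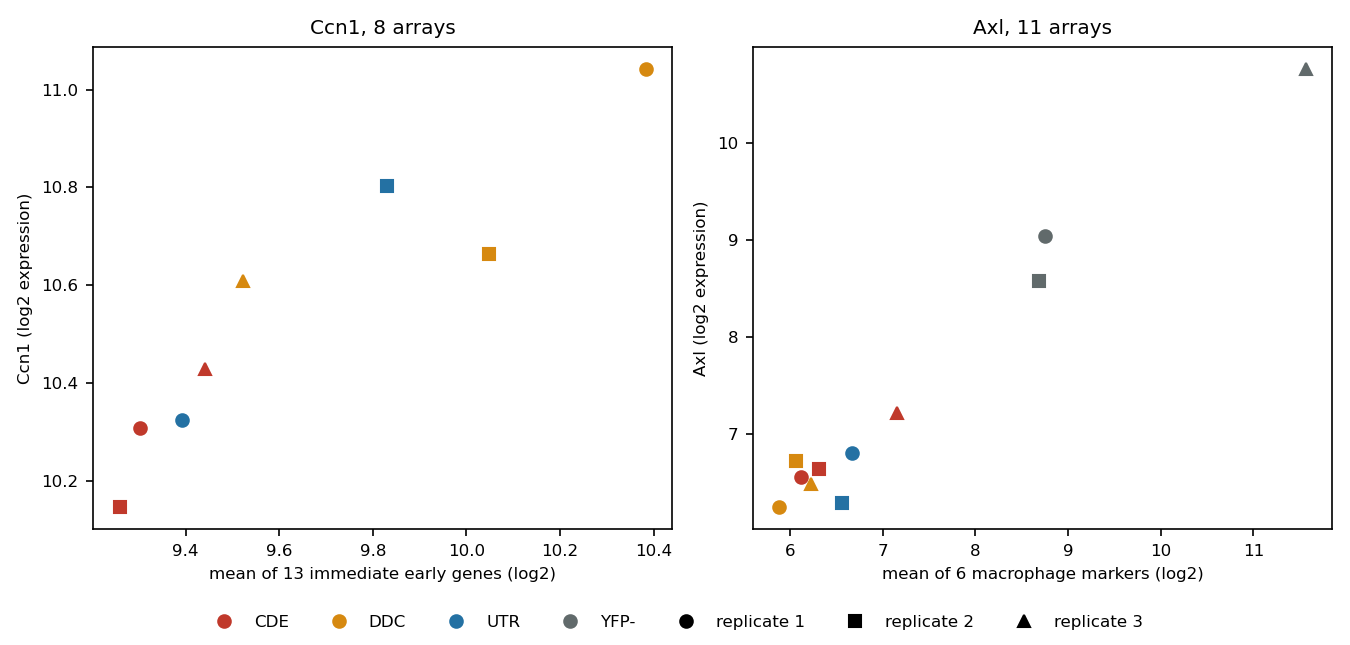
Left, log2 expression of Ccn1 (y axis) against the mean of 13 immediate early genes (x axis) on the 8 YFP+ arrays. Right, Axl (y axis) against the mean of 6 macrophage markers (x axis) on all 11 arrays; colours give the group and shapes the replicate. Ccn1 is highest on DDC replicate 1, where the immediate early mean is 10.38, and Axl on YFP- replicate 3, where the macrophage mean is 11.56.

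The wider lists had few calls between the diets. In CDE and in DDC against UTR 0 genes of any of the 5 lists were called. The lowest adjusted p in DDC against UTR was 0.102 for Ier3 (0.82 ± 0.15) and 0.119 for the tropomyosin Tpm1 (0.83 ± 0.16). Igfbp3, a growth factor binding protein from the YAP target signatures, differed by 1.33 ± 0.32 in DDC (adjusted p = 0.190). Its readings in UTR ranged from 5.17 to 6.43, against a mean of 7.13 in DDC. The difference thus depended on the UTR array kept: it was 1.96 without UTR replicate 1 and smaller without UTR replicate 2. In DDC against CDE 1 of 11 actin and SRF genes was called, the non-muscle myosin heavy chain Myh9 (0.48 ± 0.09, adjusted p = 0.046). Its means were 10.23 ± 0.07 in DDC and 9.75 ± 0.04 in CDE (SD, n = 3 each), and the call was lost without any 1 array. Of the other YAP target genes 0 of 14 were called, with Arhgef17 at 0.42 ± 0.09 (adjusted p = 0.0711) and the stress gene Gadd45a at 0.54 ± 0.12 (0.0761). Hippo kinases and upstream genes had 0 of 21 called, with Fat4 at -0.64 ± 0.17 (0.122) and the adaptor Sav1 at -0.40 ± 0.11 (0.149). Of the TEAD paralogs and VGLL cofactors 0 of 7 were called.

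To place the patterns among all genes, the named genes nearest to 4 of the 10 were taken by the root-mean-square difference over the 11 arrays after each gene was centred on its own mean, among 17727 candidates. For Yap1, whose SD over the arrays was 0.79, they were Fnbp1l (0.16), Agap1 (0.18) and Rtkn (0.19). For Tead1 they were Nfib (0.14), Tns1 (0.16) and Nr5a2 (0.16), against an SD of 1.24. For Ccn1 they were Eps8l2 (0.37), Fat1 (0.41) and Slc44a4 (0.42), against an SD of 1.97. For Ankrd1 they were Shisa4 (0.28), Cdh6 (0.29) and the keratin of bile ducts Krt7 (0.34), against an SD of 2.06. Krt7 averaged 9.11 in CDE, 9.72 in DDC and 9.47 in UTR, and 5.60 in YFP-. The distances take in the gap between YFP+ and YFP- arrays and the spread among YFP- arrays, and the share of each was not computed. For Yap1, Tead1 and Ankrd1, YFP- replicate 1 lay between the other YFP- arrays and the YFP+ arrays. Ccn1 read 7.11 and 7.08 on YFP- replicates 1 and 3 and 5.26 on replicate 2. Among the 10 genes themselves the nearest pair was Amotl2 and Yap1 (0.30) and the farthest Ankrd1 and Axl (3.25).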

How the data were processed

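The values are log2 expression values that the authors deposited, 1 per feature and array, from biotin-labelled RNA per the labels. How background was corrected, arrays normalized and probes summarised is not given in the sources used here. Of 25206 features 23185 had 1 gene symbol, all matched to RefSeq by gene number, and 2021 were unnamed and not tested. No 2 arrays were identical.

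The tests used limma 3.58.1 (lmFit and eBayes; R 4.3.3) on group means, without further normalization: 11 arrays (7 residual degrees of freedom) for comparisons with YFP-, and the 8 YFP+ arrays (5) for the diets, because YFP- arrays vary more. P-values were two-sided and adjusted over all 23185 genes by Benjamini-Hochberg, with a threshold of 0.05. The number of arrays limits the precision.

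Named are all 10 genes, up to 4 called genes per wider list and comparison (or the 2 with the lowest p, given in part), and the 3 nearest patterns of 4 genes. The members, the lists and the 8-array fit were chosen with earlier results of these data known. Alternatives were quantile normalization, a low-value filter, trended and robust eBayes, array weights, a replicate block, other arrays in the fit and leaving out each array.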

Additional observations from a re-analysis of the deposited data

Results flagged for a closer look

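Ccn1 and Ccn2 are given here for their position on the 2 diets. Every DDC array lay above the UTR mean and every CDE array below it for both genes, so that the DDC minus CDE difference was 0.48 for Ccn1 and 0.46 for Ccn2 (log2). The UTR mean rests on 2 arrays that span much of this range: Ccn2 read 11.17 to 11.41 in DDC and 10.78 to 10.87 in CDE, against 11.23 and 10.53 in UTR. Without UTR replicate 1, Ccn2 in CDE minus UTR was 0.28 and Ccn1 in DDC minus UTR was -0.031, so the position around UTR depends on that array. Tested directly, neither passed over all genes (adjusted p = 0.224 and 0.248, limma). For DDC minus CDE, leaving out any 1 array gave 0.34 to 0.56 for Ccn1 and 0.39 to 0.51 for Ccn2, and 0 calls.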

How the results depend on the processing

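The count of all genes called in UTR against YFP- was 4373, and 931 with the 5 untreated arrays alone; leaving out 1 array gave 2306 (without UTR replicate 2) to 5817 (without YFP- replicate 1). For YFP+ against YFP- it was 7083, and 4534 with array weights. CDE against UTR called 0 genes, 1 with the low-value filter, 1 with trended eBayes and 0 to 46 without 1 array (46 without UTR replicate 1). DDC against UTR called 37, 0 with all 11 arrays and 0 to 103 without 1 array (0 without DDC replicate 2, 103 without UTR replicate 1). DDC against CDE called 269, 1 with all 11 arrays and 16 to 211 without 1 array (16 without CDE replicate 3).

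Same-numbered arrays of different groups did not deviate together (15 pairs, r = -0.08 to 0.14, 1 over 0.1; 5 of 11 arrays were nearest to their own number), so the numbers were not taken as pairs. With the replicate block, DDC against UTR called 0 genes and DDC against CDE 61, the 6 higher and 1 lower calls among the 10 genes in UTR against YFP- were kept, and small differences changed sign for Amotl2 in CDE against UTR (-0.018) and Wwtr1 in DDC against UTR (-0.0092). Quantile normalization turned Amotl2 in CDE against UTR too (-0.016).

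Leaving out 1 array turned some uncalled diet differences. In CDE against UTR the ranges were -0.21 to 0.0037 for Wwtr1, -0.14 to 0.043 for Lats2, -0.13 to 0.079 for Amotl2, -0.77 to 0.11 for Ajuba, -0.41 to 0.28 for Ccn2, -0.45 to 0.80 for Ankrd1, -0.0052 to 0.51 for Axl, -0.42 to 0.088 for Tead3 and -0.077 to 0.40 for Vcl. In DDC against UTR they were -0.0022 to 0.056 for Wwtr1, -0.089 to 0.18 for Amotl2, -0.58 to 0.30 for Ajuba, -0.031 to 0.45 for Ccn1 and -0.32 to 0.19 for Axl. In DDC against CDE the range was -0.090 to 0.18 for Amotl2. The cause was not tested. No sign changed for the 10 genes in either comparison with YFP-.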
